A study of Mus musculus with 9 samples.

Results

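The matrix metalloproteinase genes *Mmp2*, *Mmp3*, *Mmp9*, *Mmp12*, *Mmp14* and *Mmp19* and the inhibitor genes *Timp1*, *Timp2*, *Timp3* and *Timp4* were read by symbol from the gene count table, which gave 10 of its 56748 genes. All 10 were present, and all 10 had at least 0.5 CPM (counts scaled to a common library total) in at least 1 library and were tested. RNA of whole epididymal adipose tissue was sequenced in 9 libraries of WT male C57BL/6J mice. The mice were 8 weeks old when the diet began, and every group had received high-fat diet (HFD) for 8 weeks. The 3 Pre libraries were taken at the end of HFD, and the 3 WL1 and 3 WL2 libraries after a further 1 or 2 weeks of standard diet (SD), so that the change of diet and the added age cannot be told apart. The labels do not say whether the libraries of a phase came from separate mice, and p-values then measure only the spread between these libraries.

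Matrix metalloproteinases are zinc enzymes that cut collagens, elastin and other proteins of the extracellular matrix, and most are made as inactive proenzymes. Tissue inhibitors of metalloproteinases (TIMPs) bind the active enzymes, and TIMP2 also joins the membrane enzyme MMP14 in a complex that activates proMMP2. In adipose tissue, these enzymes take part in the remodeling of the matrix around adipocytes as fat depots grow and shrink, and MMP12 is known as the macrophage elastase.

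*Mmp12* was the gene of this group that changed most. It was higher at WL1 than at Pre, together with *Mmp14*, whereas *Mmp2* was lower and *Timp4* higher at WL2 than at WL1. With each library left out in turn, these calls passed in 4 of 9 fits for *Mmp12*, 5 for *Mmp14*, 3 for *Mmp2* and 5 for *Timp4*. The promoters of the genes with these changes, and of *Mmp3* as a neighbor of *Mmp12* on chromosome 9 with no such change, are shown first. They were read from RefSeq promoter windows on GRCm38.p6, which matched 7 of the 10 genes in 8 windows. *Mmp2*, *Mmp9* and *Mmp19* had none. Each window holds 250 bases before and 30 bases from the RefSeq start on the strand of the gene, 5′ to 3′, and capitals mark the motif letters searched. The *Mmp12* windows are chr9:7344147-7344426 and chr9:7347124-7347403 and that of *Mmp3* is chr9:7445572-7445851, all on the plus strand. The *Mmp14* window is chr14:54431348-54431627 on the plus strand and that of *Timp4* is chr6:115252176-115252455 on the minus strand.
Mmp12 window 1: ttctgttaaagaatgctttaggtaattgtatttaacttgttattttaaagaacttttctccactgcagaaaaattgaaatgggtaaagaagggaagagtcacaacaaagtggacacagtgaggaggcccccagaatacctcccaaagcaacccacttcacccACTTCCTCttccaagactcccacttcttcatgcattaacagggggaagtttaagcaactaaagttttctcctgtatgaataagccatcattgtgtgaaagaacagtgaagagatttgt
Mmp12 window 2: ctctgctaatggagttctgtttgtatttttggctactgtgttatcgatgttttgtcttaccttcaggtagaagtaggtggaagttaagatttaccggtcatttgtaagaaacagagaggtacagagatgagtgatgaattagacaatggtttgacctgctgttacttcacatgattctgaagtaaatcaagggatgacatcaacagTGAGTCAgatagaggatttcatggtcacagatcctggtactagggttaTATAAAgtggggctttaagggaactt
Mmp3: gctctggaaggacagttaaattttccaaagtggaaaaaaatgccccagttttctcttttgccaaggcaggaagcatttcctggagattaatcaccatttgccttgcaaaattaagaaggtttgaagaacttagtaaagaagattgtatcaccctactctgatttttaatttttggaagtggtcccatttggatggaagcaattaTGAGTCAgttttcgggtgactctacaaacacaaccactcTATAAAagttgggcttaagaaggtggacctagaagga
Mmp14: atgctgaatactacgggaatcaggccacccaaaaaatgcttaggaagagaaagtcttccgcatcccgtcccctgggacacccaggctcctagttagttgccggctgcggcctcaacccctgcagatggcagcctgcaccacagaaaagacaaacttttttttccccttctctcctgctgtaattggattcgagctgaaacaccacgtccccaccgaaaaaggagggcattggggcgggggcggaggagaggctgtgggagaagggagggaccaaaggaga
Timp4: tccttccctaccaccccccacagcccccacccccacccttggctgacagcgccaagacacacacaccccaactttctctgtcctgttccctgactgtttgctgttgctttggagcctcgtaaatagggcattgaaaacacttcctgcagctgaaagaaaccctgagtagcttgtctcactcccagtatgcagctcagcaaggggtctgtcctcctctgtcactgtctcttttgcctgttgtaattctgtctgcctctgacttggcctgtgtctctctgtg

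The AP-1 letters TGAGTCA, searched on both strands, stood in the second *Mmp12* window at position -44 from the RefSeq start and in that of *Mmp3* at position -46. Of all 32851 RefSeq promoter windows of this length, 4.94% held these letters. The PU.1 letters GAGGAAGT, also searched on both strands, stood at position -88 of the first *Mmp12* window, where the opposite strand carries them, and in 2.82% of all windows. The TATA letters TATAAA were searched on the strand of the gene alone. They began at position -7 in the *Mmp3* window and at position 5, after the RefSeq start, in the second *Mmp12* window. They stood in 8.02% of all windows. The windows of *Mmp14*, *Timp1*, *Timp2*, *Timp3* and *Timp4* held none of these letters. The *Mmp12* and *Mmp3* windows had a GC content of 38.9 to 39.3%, against a median of 52.5% over all windows. The *Mmp14* window had 55.7%, within the 53.9 to 68.9% of the inhibitors. No motif overlapped another. These matches describe letters in a window and say nothing about binding.

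Each library held between 16434450 and 22729072 counts, and mitochondrial genes took 3.15 to 3.57% of them at Pre, 1.86 to 2.03% at WL1 and 2.28 to 2.88% at WL2. Most of the genes described here were well covered. *Mmp9* had the fewest counts in a library, 33 in Pre replicate 1, with an exact 95% Poisson interval of 22.7 to 46.3 that covers counting error only. Fat cell genes such as *Fabp4* were abundant in every library, and epididymis genes were close to absent, with a summed level of at most 0.461 CPM and *Defb22* at 0 throughout. Pre replicate 2 stood apart in lymphocyte genes, whose 9 markers summed to 206 CPM there and to 5.72 to 19.4 CPM in the other libraries.

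Levels of different genes were compared in FPKM, which is scaled to gene length. At Pre the highest was *Timp2* (150 FPKM), followed by *Timp4* (62.6 FPKM) without overlap between their libraries, then *Mmp12* (28.9 FPKM), *Timp3* (22.6 FPKM) and *Mmp19* (19.6 FPKM), whose neighbors in this order overlapped. *Mmp2*, *Mmp14* and *Timp1* lay between 12.9 and 14.8 FPKM and overlapped, and *Mmp3* and *Mmp9* were the lowest at 3.99 and 2.01 FPKM. At WL1 *Mmp12* averaged 140 FPKM, above the 42.1 FPKM of *Timp4* without overlap, and its libraries overlapped those of *Timp2* (176 FPKM). At WL2 the order began again with *Timp2* (175 FPKM) and *Timp4* (91.1 FPKM), and the *Mmp12* libraries (67.6 FPKM on average) overlapped those of *Timp4* and *Timp3*.

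**Figure D1:**
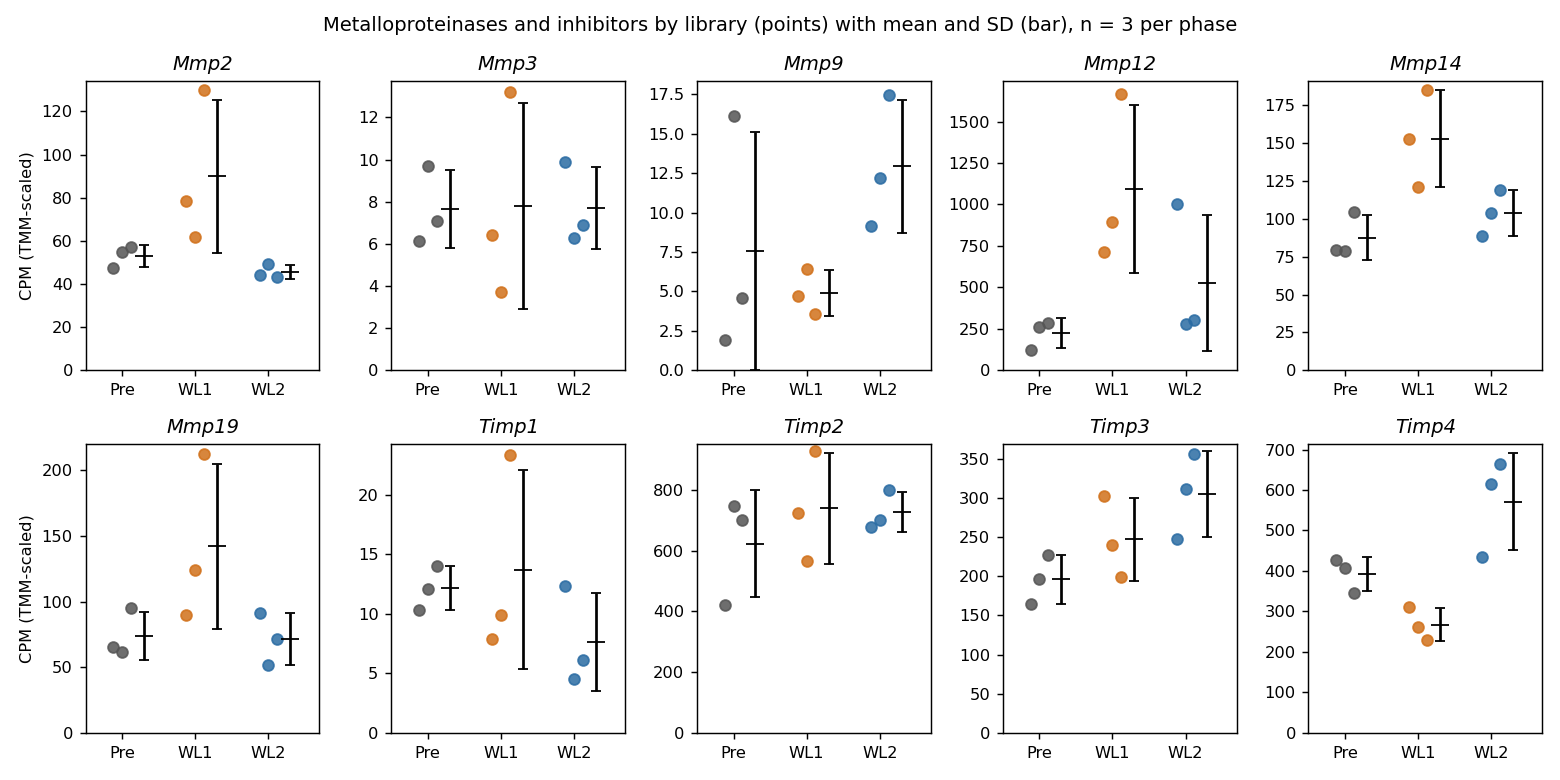
CPM of each gene on its own linear axis from 0 by phase, with 1 point per library and the mean and SD of 3 libraries as a bar beside them. The WL1 points of *Mmp12* lie between 716 and 1667 CPM, above all Pre points, while those of *Timp4* lie below both other phases.

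The comparison of WL1 with Pre asked what changed after 1 week of SD. Of the 10 genes, 2 passed the test, *Mmp12* and *Mmp14*, both higher, against 7.29% of all 18510 genes tested (2.60% higher and 4.69% lower). The test was the quasi-likelihood test of edgeR with Benjamini-Hochberg adjustment over all genes tested and a threshold of 0.05, and is meant by "edgeR adjusted p" in what follows. The CPM of 4 of the 10 genes did not overlap between these phases, against 28.7% of all genes tested.

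*Mmp12*, which degrades elastin, lies at chr9:7344381-7369499 in the authors' table, whose coordinates matched RefSeq GRCm38.p6, the 1 build compared, for 1 of the 10 genes and are given without a build. Its CPM values were 120, 262 and 286 at Pre, 716, 895 and 1667 at WL1, and 1001, 278 and 301 at WL2. All WL1 libraries were above all Pre libraries, and at WL2 replicate 1 stayed in the range of WL1 while the other two were near the highest Pre library. *Mmp12* rose 4.91-fold at WL1 (log2 fold change 2.29, SE 0.54, edgeR adjusted p = 0.0320). The difference between WL2 and Pre was 1.24 on the log2 scale (edgeR adjusted p = 0.165) and that between WL2 and WL1 was -1.05 (edgeR adjusted p = 0.280). The rise at WL1 passed in 9 of 10 other settings, and no longer passed when any Pre library, WL1 replicate 2 or WL1 replicate 3 was left out, with log2 fold changes of 1.85 to 2.52 over all leave-one-out fits and edgeR, DESeq2 or limma adjusted p of 0.000218 to 0.105 over all alternatives. Without WL2 replicate 1, *Mmp12* had a log2 fold change of -1.92 between WL2 and WL1 (edgeR adjusted p = 0.0276).

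*Mmp14* encodes the membrane enzyme that activates proMMP2 and cuts fibrillar collagen. The CPM of *Mmp14* was 79.2, 78.5 and 105 at Pre, 153, 121 and 186 at WL1, and 88.7, 104 and 119 at WL2. The WL1 libraries were above those of both other phases without overlap. *Mmp14* rose 1.75-fold at WL1 (log2 fold change 0.81, SE 0.18, edgeR adjusted p = 0.0262), and this call was lost without Pre replicate 1, Pre replicate 2, WL1 replicate 1 or WL1 replicate 3, and in a fit of those phases alone. Over all alternatives the adjusted p ran from 0.00169 to 0.104 (edgeR, DESeq2 or limma). The difference between WL2 and WL1 was -0.56 (edgeR adjusted p = 0.107).

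*Mmp2*, the gelatinase that MMP14 activates, had 47.4, 54.6 and 57.0 CPM at Pre, 78.4, 61.6 and 130 CPM at WL1, and 44.3, 49.1 and 43.1 CPM at WL2. Its WL1 libraries were higher than every library of the other phases. The difference between WL1 and Pre was 0.76 on the log2 scale (edgeR adjusted p = 0.0707). *Mmp2* fell at WL2 against WL1 (log2 fold change -0.98, SE 0.23, edgeR adjusted p = 0.0449). This call was close to the threshold, was lost under 7 of 10 other settings and without 6 of the 9 libraries in turn (Pre replicate 3, WL1 replicate 1, WL1 replicate 3 or any WL2 library), and had adjusted p of 0.00174 to 0.158 over all alternatives (edgeR, DESeq2 or limma).

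*Mmp19*, which is expressed by macrophages and stromal cells, had 65.4, 61.3 and 94.8 CPM at Pre, 89.7, 124 and 212 CPM at WL1, and 91.1, 51.4 and 71.5 CPM at WL2. The highest WL1 value was replicate 3, as for *Mmp2*, *Mmp12* and *Mmp14*, and the lowest WL1 library overlapped the other phases. Its log2 fold change was 0.94 at WL1 against Pre (edgeR adjusted p = 0.0976) and -0.99 at WL2 against WL1 (edgeR adjusted p = 0.10). The gene overlaps *Tmem198b* on the opposite strand, whose counts reached 29.5% of those of *Mmp19*, and the sources used here do not give the strand setting of the counting.

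*Mmp9*, the other gelatinase, had 1.95, 16.1 and 4.61 CPM at Pre, 4.72, 6.43 and 3.54 CPM at WL1, and 9.14, 12.2 and 17.5 CPM at WL2. The high Pre value was replicate 2, the library with the high lymphocyte markers, and the part of those markers in its level was not tested. The 10 mesothelium markers also varied between libraries. They summed to 46.6, 450 and 401 CPM at Pre, 272, 52.8 and 140 CPM at WL1, and 294, 619 and 841 CPM at WL2. Their part in the level of *Mmp9* was not tested either. The WL2 libraries were all above the WL1 libraries, with a log2 difference of 1.40 (SE 0.60, edgeR adjusted p = 0.210). This difference passed in 1 of 10 other settings, the fit of the compared phases alone, and in 1 of 9 leave-one-out fits. Between WL1 and Pre the log2 difference was -0.62 (edgeR adjusted p = 0.564), and 0.56 without Pre replicate 2. Without Pre replicate 2, the edgeR adjusted p was 0.0192 for WL2 against Pre (log2 fold change 1.96) and 0.047 for WL2 against WL1 (1.40). *Mmp3*, the stromelysin that activates several proMMPs, differed by 0.02 or less on the log2 scale in all 3 comparisons, at 3.72 to 13.2 CPM in the 9 libraries, with a standard error of 0.40.

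**Figure D2:**
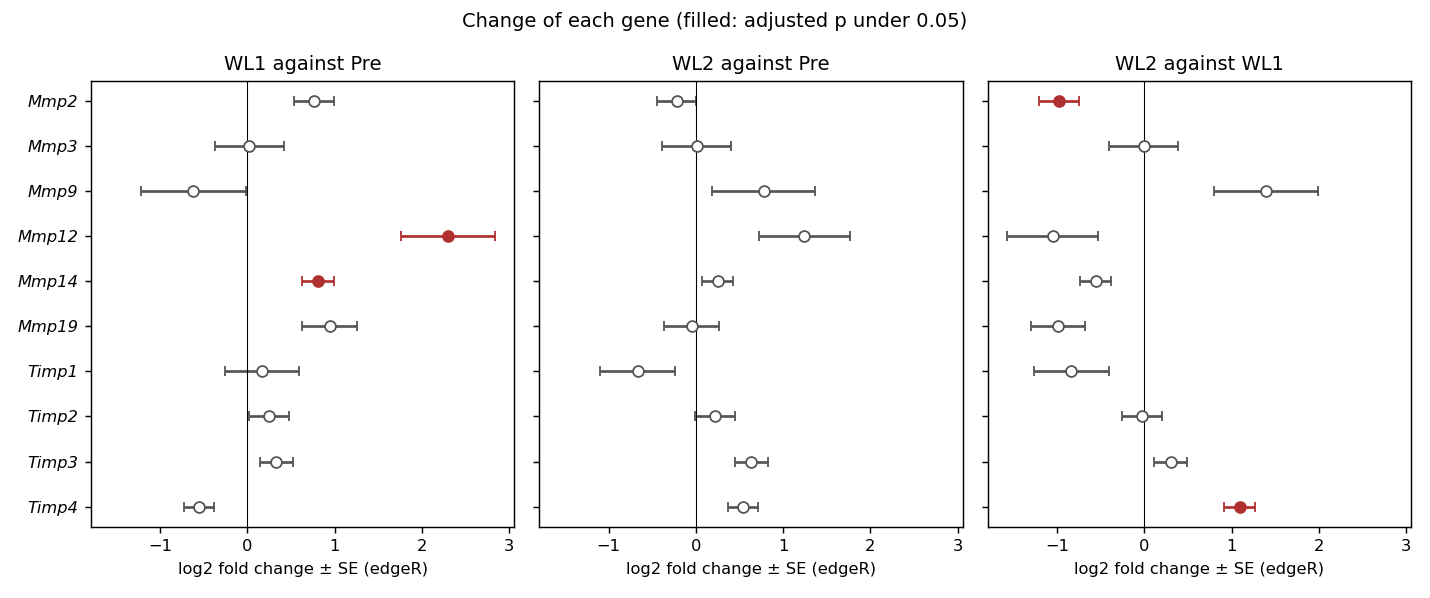
Log2 fold change with its standard error for each gene in the 3 comparisons, from the fit to all 9 libraries, with filled points for an edgeR adjusted p under 0.05. *Mmp12* and *Mmp14* are filled at WL1 against Pre, none at WL2 against Pre, and *Mmp2* and *Timp4* at WL2 against WL1.

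The comparison of WL2 with Pre covered 2 weeks of SD. None of the 10 genes passed with edgeR, against 10% of all genes tested (3.35% higher and 6.66% lower). At an unadjusted p under 0.05 there were 3 of them, *Mmp12*, *Timp3* and *Timp4*. DESeq2 called 2 (*Timp3* and *Timp4*) and limma called 0. The CPM of 2 of the 10 genes, again *Timp3* and *Timp4*, did not overlap between these phases, against 30.9% of all genes tested.

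The comparison of WL2 with WL1 followed the second week of SD and used the same WL1 and WL2 libraries as the comparisons with Pre. Of the 10 genes, 2 passed, against 3.68% of all genes tested (1.31% higher and 2.37% lower), with *Mmp2* lower and *Timp4* higher. The CPM of 4 genes did not overlap, *Mmp2*, *Mmp9*, *Mmp14* and *Timp4*, against 30.3% of all genes tested.

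*Timp4* is the inhibitor best known in adipose tissue and heart. Its CPM was 426, 407 and 346 at Pre, 311, 262 and 229 at WL1, and 435, 614 and 663 at WL2. The WL1 libraries were the lowest and the WL2 libraries the highest, and no phase overlapped another. *Timp4* rose 2.13-fold at WL2 against WL1 (log2 fold change 1.09, SE 0.18, edgeR adjusted p = 0.0133), and passed in all 10 other settings. It did not pass without WL1 replicate 2, WL1 replicate 3, WL2 replicate 2 or WL2 replicate 3, with log2 fold changes of 0.97 to 1.26 over the leave-one-out fits and adjusted p of 4.32e-07 to 0.0796 over all alternatives (edgeR, DESeq2 or limma). The log2 fold change was -0.55 at WL1 against Pre (edgeR adjusted p = 0.0840) and 0.54 at WL2 against Pre (edgeR adjusted p = 0.0798).

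*Timp3*, the inhibitor bound to the matrix that also inhibits ADAM enzymes, had 165, 197 and 227 CPM at Pre, 303, 239 and 198 CPM at WL1, and 247, 311 and 356 CPM at WL2. Its WL2 libraries were above all Pre libraries and overlapped those of WL1. Between WL2 and Pre its difference was 0.63 on the log2 scale (SE 0.19, edgeR adjusted p = 0.0606). Without WL2 replicate 1, the edgeR adjusted p at WL2 against Pre was 0.0419 for *Timp3* (log2 fold change 0.77) and 0.0253 for *Timp4* (0.70).

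*Timp2*, which both inhibits MMPs and takes part in the activation of proMMP2, had the highest level of these genes and log2 fold changes of 0.25, 0.22 and -0.02 in the 3 comparisons. Its libraries overlapped in all 3 comparisons, from 422 to 927 CPM. *Timp1*, an inhibitor induced in inflamed tissue, had 10.4, 12.1 and 14.1 CPM at Pre, 7.92, 9.91 and 23.3 CPM at WL1, and 12.3, 4.53 and 6.13 CPM at WL2, which overlapped throughout. *Timp1* lies within *Syn1* on the opposite strand, whose counts reached 79.5% of those of *Timp1*, so its level is uncertain. *Timp3* and *Timp4* lie within *Syn3* and *Syn2*, whose counts were at most 0.680% and 3.72% of theirs.

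Summed over the 6 metalloproteinases, the level was 83.1 ± 19.1 FPKM at Pre, 231 ± 96.4 FPKM at WL1 and 123 ± 53.2 FPKM at WL2 (mean ± SD, n = 3). The sum of the 4 inhibitors was 249 ± 43.3, 260 ± 46.0 and 309 ± 40.6 FPKM. *Mmp12* made up 33.7% of the enzyme sum at Pre, 59.9% at WL1 and 50.4% at WL2, and *Timp4* 26.0%, 16.6% and 29.2% of the inhibitor sum.

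The ratio of the enzyme sum to the inhibitor sum was 0.312, 0.312 and 0.375 in the Pre libraries, 0.624, 0.875 and 1.12 in the WL1 libraries, and 0.686, 0.281 and 0.280 in the WL2 libraries. The WL1 libraries were above all Pre libraries, and WL2 replicate 1 was within the range of WL1. Without *Mmp12* the mean ratio was 0.220, 0.345 and 0.181, higher in every WL1 library than in any library of the other phases. The enzyme sum leaves out other expressed metalloproteinases and covers only part of the family. Among those left out, *Mmp28* averaged 21.0, 12.6 and 13.2 FPKM at Pre, WL1 and WL2, and *Mmp11* 7.15, 19.2 and 13.8 FPKM. No test was made of these sums and ratios, since the genes summed were chosen with results of these data known. RNA levels do not measure enzyme activity.

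**Figure D3:**
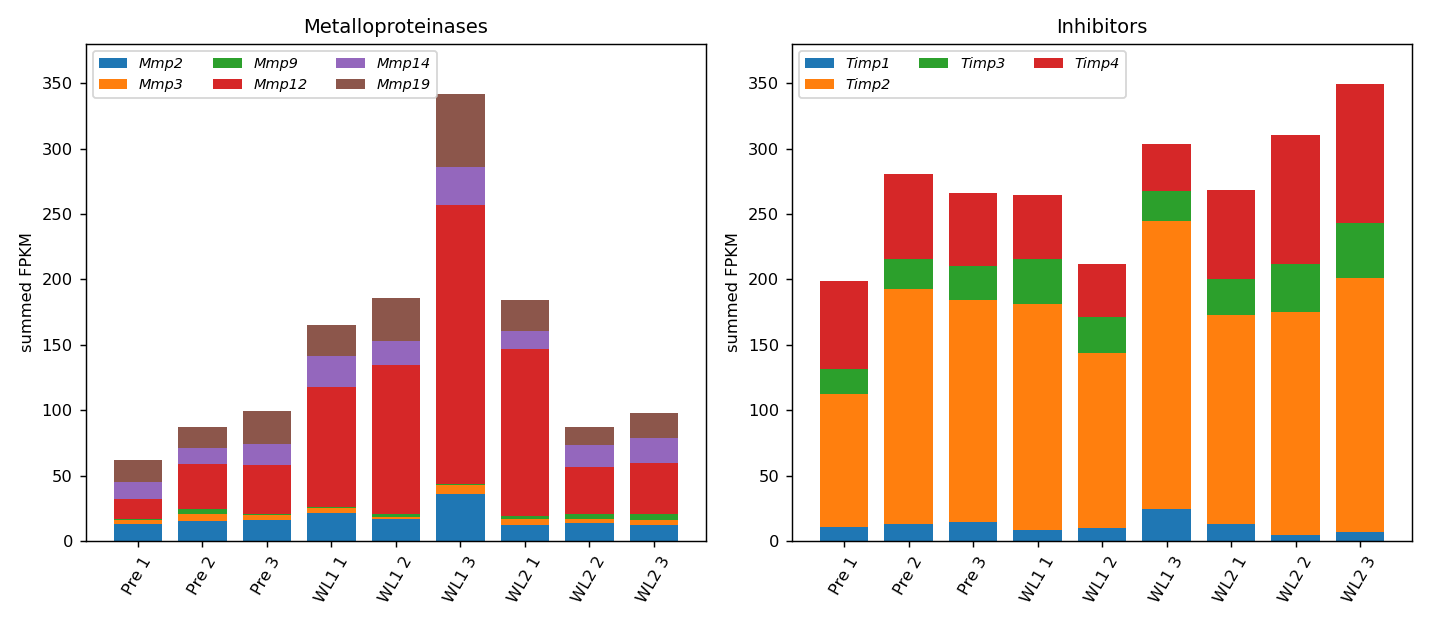
FPKM of the metalloproteinases (left) and inhibitors (right) stacked by gene for each of the 9 libraries, on the same linear axis from 0. *Mmp12* fills the largest part of the enzyme bar in every library except Pre replicate 1, and *Timp2* that of the inhibitor bars in every library.

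Ratios between partners were read in the same way. The ratio of *Mmp14* to its partner *Timp2* was 0.0963 ± 0.0270 at Pre, 0.136 ± 0.00476 at WL1 and 0.0933 ± 0.00660 at WL2 (mean ± SD, n = 3), with WL1 above both other phases. That of *Mmp2* to *Timp2* was 0.103 at Pre, 0.138 at WL1 and 0.0729 at WL2, with WL2 below both. The ratio of *Mmp9* to *Timp1*, 2 genes with few counts of which *Timp1* is uncertain beside *Syn1*, averaged 0.155 at Pre, 0.117 at WL1 and 0.526 at WL2. Without Pre replicate 2 the Pre mean was 0.0647. The WL2 libraries (0.186 to 0.715) overlapped those of Pre (0.0471 to 0.334) and lay above those of WL1. The ratio of *Mmp12* to *Timp1*, with the same limit on *Timp1*, averaged 2.19 at Pre, 10.3 at WL1 and 7.84 at WL2. Its WL1 and WL2 libraries overlapped each other and lay above those of Pre.

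Marker genes of other cells were read beside the enzymes. The 14 macrophage genes, of which *Lyz2* was the highest, summed to 1847 to 3461 CPM at Pre, 3406 to 6430 CPM at WL1 and 2055 to 3680 CPM at WL2. Only *Msr1* passed the edgeR test at WL1 against Pre, and none passed in the other comparisons, where 1 and 8 genes had an unadjusted p under 0.05. DESeq2 called 5 higher at WL1 against Pre and 2 lower at WL2 against WL1, limma called 0, and without WL2 replicate 1 edgeR called 5 and 6. The *Msr1* call was the only one of the list at WL1, and with any Pre library, any WL1 library or WL2 replicate 3 left out no gene of the list passed at WL1 with edgeR. In whole tissue, fewer cells of a type and less RNA per cell cannot be told apart.

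Relative to the macrophage sum, *Mmp12* was 6.48, 7.58 and 9.82% at Pre, 21.0, 23.0 and 25.9% at WL1, and 27.2, 13.5 and 13.0% at WL2. Every library after SD was above every Pre library, which was not so for *Mmp12* alone. Without *Lyz2*, which made up 37.2 to 43.2% of the sum, it was 11.3 to 16.7% at Pre, 33.4 to 43.7% at WL1 and 21.5 to 46.7% at WL2. *Mmp19* was 1.77 to 3.54% of the macrophage sum in all 9 libraries with no separation of the phases. The part of macrophage content in the change of either gene was not tested.

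**Figure D4:**
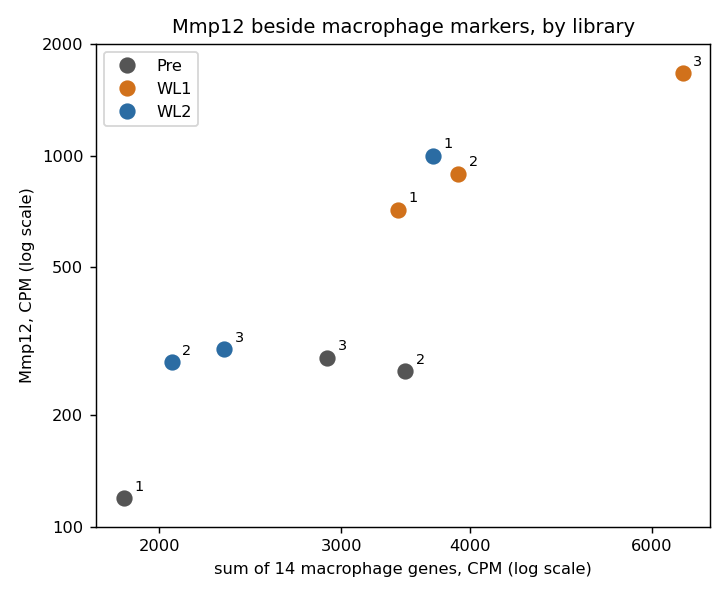
CPM of *Mmp12* against the summed CPM of 14 macrophage genes, both on log scales, with 1 numbered point per library. The WL1 libraries and WL2 replicate 1 lie at 716 to 1667 CPM of *Mmp12*, and WL2 replicates 2 and 3 lie near Pre in *Mmp12* at macrophage sums below those of Pre replicates 2 and 3.

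The 12 fibroblast genes (*Gsn* the highest) summed to 9141 to 12290 CPM at Pre, 10300 to 10790 CPM at WL1 and 14290 to 18330 CPM at WL2. *Gsn* alone made up 75.6 to 86.3% of this sum, and without it the sum was 1727 to 2233, 1689 to 2339 and 2260 to 2712 CPM, in the same order of phases. Relative to the full sum, *Mmp2* was 0.386 to 0.623% at Pre, 0.585 to 1.26% at WL1 and 0.242 to 0.310% at WL2, and *Mmp14* was highest at WL1 without overlap. Relative to the sum without *Gsn*, *Mmp2* was 2.55 to 2.74%, 3.65 to 5.54% and 1.59 to 1.96%, and *Mmp14* was 3.86 to 4.68%, 7.16 to 7.93% and 3.92 to 4.38%, so that both were highest at WL1 without overlap. The 12 adipocyte genes summed to 32840 to 40490, 22970 to 29570 and 30430 to 34770 CPM, in the same order of phases. Of the fibroblast genes, 1 fell at WL1 and 2 rose and 1 fell at WL2 against Pre. Between WL2 and WL1, 1 of them rose and 0 fell, 8 of the 12 were positive and 6 had an unadjusted p under 0.05. That rise numbered 0 to 1 over the leave-one-out fits. The rises at WL2 against Pre and the fall at WL1 depended on single libraries. There were 0 rising at WL2 against Pre without Pre replicate 2, WL2 replicate 2 or WL2 replicate 3, and 0 falling at WL1 without Pre replicate 2. The number falling at WL2 against Pre was 1 to 2 over the leave-one-out fits. Of the adipocyte genes, 3 fell at WL1 against Pre, where 10 had an unadjusted p under 0.05, all 12 were negative and DESeq2 called 8 lower. At WL2 against Pre, 1 rose and 3 fell, and the rise was lost without any Pre or WL2 library. At WL2 against WL1, the comparison in which *Timp4* rose, 1 rose and 1 fell, 10 of the 12 were positive and DESeq2 called 4 higher. *Timp4* was 1.05 to 1.24% of the adipocyte sum at Pre, 0.887 to 1.16% at WL1 and 1.25 to 2.18% at WL2. Without *Fabp4* the sum was 22820 to 26710, 14280 to 17320 and 18340 to 19450 CPM, and so was itself lower at WL2 than at Pre. Against this sum *Timp4* was 1.52 to 1.74%, 1.51 to 1.89% and 2.33 to 3.62%. These sums differed between the phases beside the genes, and their part in the changes was not tested.

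Neutrophil markers were low, with a sum of 6.23 to 24.5 CPM in the 9 libraries, *Ly6g* at 0 in all of them and *Cxcr2*, *Retnlg*, *Mmp8*, *Camp* and *Ngp* at 0 in some. *S100a8*, the highest of them, fell at WL1 and WL2 against Pre, and *Ltf*, named after its values were seen and with 68 counts over the 9 libraries, rose at WL1. The list as a whole did not follow *S100a8*, since the median log2 fold change of its 5 tested genes was 0.31 and 0.85 at WL1 and WL2 against Pre. *S100a9*, also named after its values were seen, had 65 counts over the 9 libraries and did not pass. At WL1 against Pre, no neutrophil gene was called higher in 8 of the 9 leave-one-out fits or with DESeq2. In that comparison none was called lower without Pre replicate 1, Pre replicate 3 or any WL1 library. At WL2 against Pre, 1 was called lower in every leave-one-out fit. No gene of the endothelium, mesothelium or T and B cell lists passed in any comparison with edgeR, and at an unadjusted p under 0.05 there were 1 at most in endothelium, 10 in mesothelium (all at WL2 against WL1, higher) and 3 in the lymphocyte list. DESeq2 called 1 mesothelium gene in each comparison with WL2 and none of the endothelium or lymphocyte genes, and limma called 0 in all of them. Of the 8 smooth muscle and pericyte genes, 2 fell at WL1 and at WL2 against Pre, *Acta2* and *Cspg4*, named after their values were seen.

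Of the 17 other metalloproteinase genes, 8 were tested, and *Mmp1a*, *Mmp7* and *Mmp20* had no count in any library. *Mmp11*, a stromal metalloproteinase, had 25.6, 17.3 and 20.6 CPM at Pre, 59.1, 57.3 and 56.5 CPM at WL1, and 43.1, 52.2 and 26.9 CPM at WL2. Every library after SD was above every Pre library. *Mmp11* rose at WL1 (log2 fold change 1.45, edgeR adjusted p = 0.00502) and at WL2 (0.95, edgeR adjusted p = 0.0238) against Pre. *Mmp28* fell at WL1 and WL2 (-0.72 and -0.67) and the membrane enzyme *Mmp15* fell at WL2 (-0.81), and none of the 8 passed at WL2 against WL1 with edgeR (2 at an unadjusted p under 0.05, 1 with DESeq2 and 0 with limma). The counts at WL2 went to 0 without WL2 replicate 1 or WL2 replicate 2.

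The list of activators and restraints held urokinase, its receptor, plasminogen, serpins, proprotein convertases and others, and 14 of its 15 genes were tested. *Plau* (urokinase) and *Plaur* (its receptor), which make plasmin at the cell surface, rose at WL1 against Pre by 0.66 and 0.86 on the log2 scale, and neither call survived leaving out any WL1 library, Pre replicate 1 or Pre replicate 3. At WL2 against WL1, *Plau* fell by 0.84 on the log2 scale and *Pcsk6* rose by 0.97, and both calls were lost without any WL1 library, WL2 replicate 2 or WL2 replicate 3. No gene of the list passed at WL2 against Pre with edgeR (4 at an unadjusted p under 0.05, 3 with DESeq2 and 0 with limma). *Plg* and *Serpinf2*, singled out after their values were seen for the largest fitted differences, were both low, with 83 and 63 counts over the 9 libraries, and did not pass.

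The ADAM and ADAMTS enzymes are relatives of the MMPs, and TIMPs inhibit some of them. Of 12 such genes, 1 rose and 1 fell at WL1, 5 fell at WL2 against Pre and 4 fell at WL2 against WL1. *Adam8*, a leukocyte sheddase, rose at WL1 (1.99, edgeR adjusted p = 0.0381) from 61.3 to 108 CPM at Pre to 250 to 522 CPM, and the call was lost without any single Pre or WL1 library. *Adamts5*, an aggrecanase, fell by 1.15 at WL1 and by 1.44 at WL2 on the log2 scale. *Adam12*, *Adamts2* and *Adam19* fell at WL2 against Pre by 1.49, 1.03 and 0.70. The count at WL2 against Pre was 3 to 5 over the leave-one-out fits, and that at WL2 against WL1 was 0 to 2 without Pre replicate 1, WL1 replicate 1, WL1 replicate 3, WL2 replicate 2 or WL2 replicate 3.

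Of 18 matrix proteins that metalloproteinases cut, 6 fell and 0 rose at WL1 against Pre, 10 fell and 1 rose at WL2 against Pre, and 7 fell and 0 rose at WL2 against WL1. The median log2 fold change of the list was -0.29, -0.79 and -0.66, beside 0.02, 0.01 and -0.00 over all genes tested. *Col6a2*, a chain of the type VI collagen of adipose tissue, had 1501 to 1756 CPM at Pre, 698 to 947 CPM at WL1 and 407 to 474 CPM at WL2. It fell by 1.06 at WL1 and by 1.95 at WL2 on the log2 scale. *Col4a2*, *Col5a1*, *Col6a1* and the basement membrane proteoglycan *Hspg2* fell by 1.63, 1.59, 1.55 and 1.49 at WL2 against Pre. *Dcn*, named after its values were seen as the 1 gene that rose, is also among the fibroblast markers (log2 fold change 0.84, edgeR adjusted p = 0.0215), and its call was lost without Pre replicate 1, Pre replicate 2, WL2 replicate 2 or WL2 replicate 3. The count at WL1 was 3 without Pre replicate 2, WL1 replicate 1 or WL1 replicate 2, that at WL2 against Pre stayed between 8 and 11, and that at WL2 against WL1 was 0 without WL2 replicate 2.

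**Figure D5:**
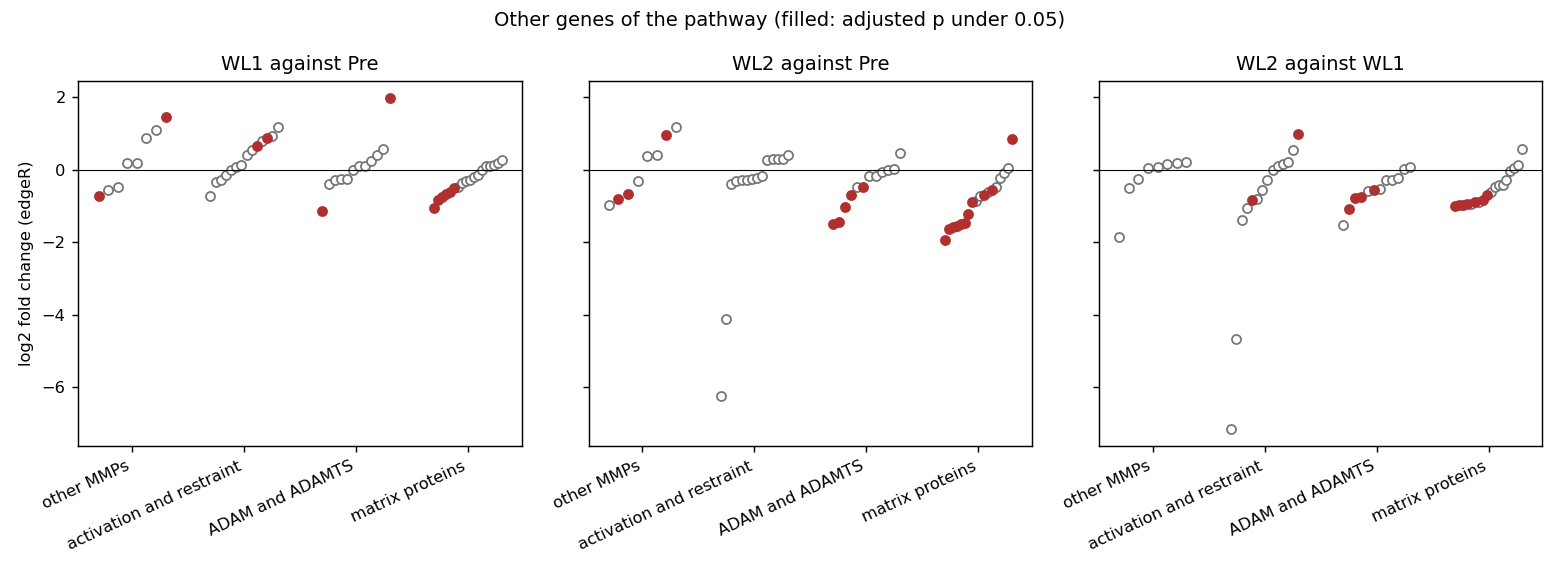
Log2 fold change of every tested gene of the 4 pathway lists in the 3 comparisons, in order of size within each list, with filled points for an edgeR adjusted p under 0.05. At WL2 against Pre, 10 of the 18 matrix proteins are filled below 0, and the lowest open points are *Plg* and *Serpinf2*, which had few counts.

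The genes whose pattern over the 9 libraries was most like that of a variable member were listed by the root mean square difference of centered log2 CPM among 13055 protein-coding genes. They were *Il7r* (0.145), *Rnf128* (0.181) and *Gpnmb* (0.183) for *Mmp12*, and *Prune2* (0.121), *Asb4* (0.159) and *Ccsap* (0.186) for *Mmp19*. For *Mmp9* they were *Alox15* (0.268), *Fcna* (0.366) and *Timd4* (0.380), and for *Timp1* *Ncs1* (0.262), *Cstb* (0.278) and *Lhfpl2* (0.30), both with few counts and a looser likeness. The distances describe 9 libraries that share their phases.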

How the data were processed

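RNA sequencing of 9 libraries was used. The authors deposited raw counts of every gene and the FPKM of the same libraries, which are scaled by gene length and library total. The submitters' processing notes name CASAVA, HISAT2, HISAT, TopHat2, GRCm38 and mm10 without roles, and the sources used here do not give the strand setting. Only 1 of 10 members had the coordinates of RefSeq GRCm38.p6, so table coordinates carry no build.

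A gene was tested where 1 or more libraries reached 0.5 CPM (18510 genes). The quasi-likelihood test of edgeR 4.0.16 under R 4.3.3 was fitted once to all 9 libraries with TMM factors and no covariates. It was checked on simulated data with 200 genes changed by 1.5 on the log2 scale. It recovered 135 of them at WL1 against Pre, 139 at WL2 against Pre and 128 at WL2 against WL1. False calls made up 4.26, 3.47 and 6.57% of the calls, the last above the 0.05 threshold. The simulated counts were drawn from the fitted dispersion alone, without outlying libraries, so these shares need not hold for the real libraries. P-values were adjusted by Benjamini-Hochberg (threshold 0.05). Alternatives were DESeq2 1.42.0, limma 3.58.1 on log2(FPKM + 1) and log2(FPKM + 0.1), other filters and factors, the replicate number as a block, the compared phases alone, and each library left out. CPM were TMM-scaled. Library pairs of a phase differed beyond sampling noise (9.13 to 48.9 chi-square units per degree of freedom).

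Members and lists were chosen with earlier results of these data known. Named are all members, genes that overlap them, up to 5 genes past the threshold per pathway list, marker genes at 0 or highest in FPKM, and the 3 genes most like each of the 4 most variable members. The list counts under alternatives, the shares without overlap, the marker sums without their highest gene and the ratio without 1 library were added after seeing the data.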

Additional observations from a re-analysis of the deposited data

How the results depend on the processing

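Of 300 values under the 10 other settings, 255 kept direction and side of the threshold, 9 no longer passed, 18 passed anew and 18 changed sign, and of 270 with a library left out the numbers were 226, 19, 9 and 16. Members past the threshold at WL1 against Pre numbered 5 without a filter and with DESeq2, 1 in the compared phases alone, and 0 to 3 with a library left out. At WL2 against Pre they numbered 3 without a filter, 2 with DESeq2 and with library totals alone, and 0 to 2 with a library left out. At WL2 against WL1 they numbered 4 without a filter, 1 with RLE factors, upper quartile factors, library totals alone and both limma fits, and 0 to 3 with a library left out.

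Genes past the threshold numbered 2344 with DESeq2 and 512 to 1500 with a library left out at WL1 against Pre, 743 to 1688 with a library left out at WL2 against Pre, and 1668 without a filter, 1935 with DESeq2, 1053 in the compared phases alone and 37 to 1351 with a library left out at WL2 against WL1, where 681 passed in the main analysis. With library totals alone, the share of higher calls was 61.0% against 35.7% at WL1 and 64.2% against 33.5% at WL2 (both against Pre), and the median of all genes moved to 0.12 and 0.16. With upper quartile factors it was 48.3% against 35.5% at WL2 against WL1.

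Signs changed in the following cases. For *Mmp3* at WL1 against Pre, the log2 fold change was -0.01 with the filter on 3 libraries, -0.02 with upper quartile factors, -0.10 and -0.15 with limma, and -0.605 to 0.359 with a library left out. For *Mmp3* at WL2 against WL1 it was 0.011, 0.049, 0.10 and 0.16 in the same settings, 0.044 with library totals alone and -0.349 to 0.625 with a library left out, and at WL2 against Pre -0.213 to 0.216. For *Timp1* at WL1 it was -0.002 with limma (pseudocount 0.1) and -0.459 to 0.441, and for *Mmp9*, where it was -0.62 with all libraries, -1.07 to 0.563, with the only change of sign without Pre replicate 2. For *Mmp19* at WL2 against Pre it was 0.093 with library totals alone and -0.265 to 0.171. For *Timp2* at WL2 against WL1 it was 0.037 with upper quartile factors, 0.029 with library totals, 0.019 with both limma fits and -0.186 to 0.191.

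The labels do not say whether libraries with the same replicate number share anything. The deviations from the phase means had correlations of -0.277 to 0.107 between same-numbered libraries. Between differently numbered libraries they were -0.197 to 0.239. With 3 libraries a phase, these overlapping ranges cannot show whether the numbers mark a pairing. With the replicate block, members past the threshold numbered 1 at WL1 against Pre, 0 at WL2 against Pre and 1 at WL2 against WL1, and all genes 844, 1399 and 330. The calls no longer passing under the block were *Mmp12* at WL1 against Pre (log2 fold change 2.25) and *Mmp2* at WL2 against WL1 (-0.93). In the replicate block *Mmp3* had -0.093, -0.015 and 0.078. The cause of these changes was not tested. With 3 libraries a phase, 1 library decides several calls, and the low counts of *Mmp3*, *Mmp9* and *Timp1* limit their precision.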
